A study of Mus musculus with 3 samples.

Results

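The transcription factors TEAD2, MTF1 and MYC were targeted by siRNA in reprogramming mouse fibroblasts, and the transcriptomes of these cells are described by 8 libraries out of 129 in the count table. They comprise siTead2 replicates 1 to 3, siMtf1 replicates 1 and 2, and siMyc replicates 1 to 3, taken by the names of their columns. Replicate 3 of siMtf1 was left out because it held only 7981 counts. The cells were primary embryonic fibroblasts (MEFs) of wild-type BL6 mice at passage 2. They carried lentiviruses for rtTA and for a doxycycline-inducible cassette (tet-STEMCCA) with Oct4, Sox2, Klf4 and c-Myc. All transfected cells received 40 nM of pooled siRNA with a lipid reagent, or the Mock transfection, and 1 day later doxycycline at 2 ug per mL in a medium with chiron, the ALK5 inhibitor Alk5i, ascorbic acid and LIF. RNA was taken on day 6 and counted at transcript 3′ ends by CEL-Seq2, a bulk barcoding method here. The controls were 3 libraries of a non-targeting siRNA (nt) and 5 of Mock, and the other siRNAs gave 90 libraries of 30 conditions. Replicates 1 and 2 of Mock each hold a pair of libraries under the same column name, and each library was fitted as a separate one. Whether a pair shares a transfection is not stated. A time course of cells that were replated without transfection gave 21 libraries from day 0 to day 6. The sample labels give only the replicate number, so which siRNA a library received rests on the column name alone.

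TEAD2 is a DNA-binding factor that has little activity by itself and recruits the coactivators YAP and TAZ, which carry signals of cell density and tension to genes of growth and of the extracellular matrix. MTF1 is a zinc-finger factor that binds metal response elements when zinc is abundant and switches on the metallothioneins, small cysteine-rich proteins that bind zinc and copper. MYC pairs with MAX, binds E-boxes and raises genes of nucleolus, ribosome and metabolism. It is also 1 of the 4 factors of the cassette, so that siMyc met a gene of the cell and possibly a transgene, and siMyc was used in the screen as a positive control.

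The siRNAs are shown because their target sites and seeds decide which transcripts they can meet. The methods give a pool of 3 siRNAs per gene, and the library table lists 2 distinct ones for each of these genes. The guide strands are printed 5′ to 3′ with the seed, bases 2 to 8, in capitals.
Tead2 siRNA 1: uUUCCUUCgagccaaaacctg
Tead2 siRNA 2: uGAAUUUCucucgauuucctt
Mtf1 siRNA 1: cCGUUGUCauccacaaacctg
Mtf1 siRNA 2: uCUAAAAUcacuuagcucctt
Myc siRNA 1: uUUUUUGAggaucacuacctt
Myc siRNA 2: aUAGAAAUucucuuccucgtc
On GRCm38, the Tead2 guides pair with overlapping sites in the coding sequence of exon 3 of 11, at chr7:45219161-45219179 and chr7:45219175-45219193. The Mtf1 guides pair with the coding sequence of exon 2 of 11 at chr4:124804793-124804811 and with the 3′ UTR in exon 11 at chr4:124846701-124846719. The Myc guides pair with coding sequence, in exon 3 of 3 at chr15:61989764-61989782 and in exon 2 of 3 at chr15:61987599-61987617. All 6 sites lie in genes on the plus strand. Over the 19 bases that pair with a target, each guide matched transcripts of 1 gene only, its own. Because both Myc sites are coding, a cassette transcript with the same sequence could also pair with them, which was not tested.

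Depth was modest. Total counts per library ran from 51785 to 101865 in siTead2, from 64227 to 68684 in siMtf1 and from 37848 to 84880 in siMyc. They ran from 75100 to 143156 in nt and from 38925 to 83089 in Mock. Mitochondrial transcripts took 19.4 to 28.6% of the counts in these 5 groups and ribosomal protein genes 4 to 6.11%. The cells carried the transcripts of fibroblasts: 7 of 8 fibroblast markers passed the filter on low counts, and their summed level was 2422 to 3006 CPM in siTead2, 2010 to 2253 in siMtf1, 1907 to 2314 in siMyc and 1846 to 2798 in nt. Levels are given in CPM, relative to each library's sum over the tested genes after TMM scaling. Markers of macrophages (summed level 0 to 66.3 CPM over siTead2, siMtf1, siMyc and nt, with 7 of 8 genes at 0 in each), endothelium (0 to 54.5 CPM), keratinocytes (0 to 23.0 CPM) and skeletal muscle (0 to 31.3 CPM) were at or near 0. Markers of neural and Schwann cells summed to 169 to 437 CPM in siTead2, 198.8 to 221 in siMtf1, 93.8 to 234.5 in siMyc and 164.5 to 216.5 in nt. In bulk RNA, fewer cells of a type and less RNA per cell cannot be told apart.

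The targeted transcripts themselves had too few counts to show a knockdown. Expected counts were taken from the remaining transfections with the same replicate number. For Tead2 the siTead2 libraries held 2 counts against an expectation of 3.24, giving 0.618 times the expected number (exact 95% Poisson interval 0.0748 to 2.23). For Mtf1 the siMtf1 libraries held 0 against an expectation of 0.703, and up to 5.25 times the expected number is possible with that count. For Myc the siMyc libraries held 2 against 1.12, or 1.79 times the expectation (0.216 to 6.45). With expectations from nt and Mock alone the multiples were 1.31 for Tead2 (0.159 to 4.74) and 3.36 for Myc (0.407 to 12.2), and up to 3.1 for Mtf1. Over all 106 transfected libraries there were 135 counts of Tead2, 36 of Mtf1 and 60 of Myc. Whether the Myc counts include transcripts of the cassette could not be worked out, so they need not cover all Myc RNA. A lowering of these targets was not detectable at this depth, and the intervals cover counting error only. The names siTead2, siMtf1 and siMyc therefore stand for libraries with that label, and the direction of every difference below rests on it.

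Against nt, edgeR's quasi-likelihood test with the replicate as a block called 31 of 3013 tested genes in siTead2 at a Benjamini-Hochberg adjusted p under 0.05, which is 1.03%. Of these, 13 were higher (0.431%) and 18 lower (0.597%). In siMtf1 13 genes were called (0.431%), 5 higher (0.166%) and 8 lower (0.266%), and in siMyc 9 genes (0.299%), 4 higher (0.133%) and 5 lower (0.166%). At an unadjusted p under 0.05 the numbers were 329, 298 and 286. All these calls had the same sign in every replicate, and the ranges of the siRNA and nt libraries did not overlap for 28 of the 31, 13 of the 13 and 8 of the 9. DESeq2 called 46, 30 and 35 genes, and limma on the deposited log2 values 2, 0 and 1. RLE scaling moved the split to 15 higher and 13 lower genes in siTead2 and to 7 and 7 in siMtf1. Without the replicate block 2, 0 and 0 genes were called, with 236, 279 and 199 at an unadjusted p under 0.05. The siTead2 count fell to 0 (300 unadjusted) without replicate 2, to 13 without replicate 1 and to 17 without replicate 3. The siMtf1 count fell to 2 without replicate 1 or replicate 2 and to 7 without replicate 3, and the siMyc count to 5, 3 and 1 in the same order.

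Mock, which received no siRNA, served as a second control. Against Mock 97 genes were called in siTead2 (3.22%), 19 higher and 78 lower (0.631 and 2.59%). In siMtf1 56 were called (1.86%), 16 higher and 40 lower (0.531 and 1.33%), and in siMyc 9 (0.299%), 1 higher and 8 lower (0.0332 and 0.266%). Between Mock and nt themselves 47 genes were called (1.56%), of which 31 had more in Mock (1.03%) and 16 less (0.531%). Of the calls against nt, 12 of 31 in siTead2, 3 of 13 in siMtf1 and 1 of 9 in siMyc were also called against Mock.

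The siTead2 libraries had less of the chemokine Ccl7, of the snoRNA host transcripts Snhg20 and Gas5 and of Npm1, and more of Hnrnpab, Sparc and Tubb5 than nt. Ccl7, which encodes a chemokine that attracts monocytes, was at 46.0, 42.9 and 78.9 CPM in siTead2 replicates 1 to 3 against 216.5, 164.5 and 286 CPM in nt. Every siTead2 library lay below every nt library and below every Mock library, of which the lowest was at 124.1 CPM. The log2 fold change was -1.93 ± 0.45 (SE; adjusted p 0.00808), and it was -2.17 against Mock (adjusted p 0.000278) and -1.72 against the mean of the other 30 siRNAs (adjusted p 0.00762). The mean of siTead2 was the lowest of the 33 siRNAs, while siMtf1 had 140 CPM and siMyc 251 CPM. The siTead2 libraries held 11 counts of Ccl7 in all. The difference from nt was called in 5 of 11 alternative analyses, with adjusted p from 0.000278 to 0.227. Of the macrophage markers, whose cells also release chemokines, 7 of 8 were at 0 in siTead2 and in nt. Their summed level was 0, 0 and 11.3 CPM in siTead2 (1 count) against 16.7, 29.9 and 16.3 CPM in nt (5 counts). Whether macrophages have a part in the Ccl7 difference was not tested.

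Snhg20 and Gas5 are spliced non-coding transcripts whose introns hold snoRNAs. Snhg20 was at 69.0, 64.4 and 45.1 CPM in siTead2 against 166.5, 194 and 229 in nt, with no overlap. The log2 fold change was -1.82 ± 0.49 (adjusted p 0.0352), and -2.51 against Mock (adjusted p 2.57e-05). The call against nt held in 4 of 10 alternatives (adjusted p 2.57e-05 to 0.443) and was lost without any one of the 3 replicates. The siTead2 mean was the lowest of 33 siRNAs and the siMyc mean, 372.5 CPM, the highest. Gas5, also known as a growth-arrest transcript, was at 69.0, 42.9 and 45.1 CPM against 133, 179.5 and 212 in nt, a log2 fold change of -1.81 ± 0.51 (adjusted p 0.0497) that was called in none of 9 alternative analyses (adjusted p 0.0666 to 0.528). Against Mock it was -1.16 (adjusted p 0.336). A further host, Snhg5, was at 92.0, 129 and 180 CPM against 450, 359 and 245 in nt and did not pass the threshold against nt (log2 fold change -1.19, adjusted p 0.0758). It passed against the mean of the other siRNAs at -1.20 (adjusted p 0.0137) and against Mock at -1.67 (adjusted p 0.000198). Of the 7 hosts tested, a grouping chosen after their values were seen, the remaining 4 had log2 fold changes from -0.88 (Snhg14) to 0.38 (Snhg1) in siTead2, with no call.

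Among the genes that were higher in siTead2, Hnrnpab encodes an RNA-binding protein and Sparc a secreted glycoprotein that binds collagen. Hnrnpab was at 598, 623 and 563 CPM in siTead2 against 199.8, 314 and 237 in nt, with no overlap. Its log2 fold change was 1.24 ± 0.26 (adjusted p 0.00205), with 1.16 against Mock (adjusted p 0.000838) and 0.74 against the other siRNAs (adjusted p 0.0137). The nt mean lay below those of all 33 siRNAs. Sparc was at 1012, 1181 and 608 CPM against 400, 479 and 359.5 in nt, again without overlap. Its log2 fold change was 1.13 ± 0.23 (adjusted p 0.00205), and the call held in 10 of 11 alternatives (adjusted p 1.09e-05 to 0.145). Against Mock it was 1.08 (adjusted p 0.000495), and against the other siRNAs 0.53 (adjusted p 0.0955), where siTead2 ranked 27 from the lowest of 33. In siMtf1 Sparc was at 885 and 712 CPM, 0.93 above nt (adjusted p 0.076) and 0.89 above Mock (adjusted p 0.0477), and in siMyc it was at 544.5, 406 and 482 CPM (0.25, adjusted p 0.868).

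The other protein-coding genes called higher were smaller in count or in size. Tubb5, a beta-tubulin, was at 2184, 1546 and 1160 CPM in siTead2 against 1082, 1062 and 874 in nt (log2 fold change 0.65, adjusted p 0.0469). Hmga2, an architectural chromatin protein of embryonic mesenchyme, was at 2092, 1417 and 1160 CPM against 1016, 1077 and 703 (0.74, adjusted p 0.0382). Cdkn1a, the cell cycle inhibitor p21, was at 989, 773 and 451 CPM against 383, 404 and 343 (0.88, adjusted p 0.0394). In all 3 genes every siTead2 library lay above every nt library. The nt mean was low among the siRNAs, however: it lay above only 2 of the 33 siRNA means for Tubb5 and for Hmga2 and above 1 for Cdkn1a. Against Mock the differences were 0.60 for Tubb5 (adjusted p 0.0259), 0.41 for Hmga2 (adjusted p 0.282) and 0.27 for Cdkn1a (adjusted p 0.63). Cd63, a tetraspanin of endosomes, had a log2 fold change of 0.72 (adjusted p 0.0352; 0.34 against Mock, adjusted p 0.389) and Oaz1, the antizyme of polyamine synthesis, one of 0.97 (adjusted p 0.0394). The splicing factor Puf60 was at 230, 236 and 123.9 CPM against 50.0, 29.9 and 24.5 in nt, from 8 counts in nt (2.42 ± 0.55, adjusted p 0.00447). Zfp106, an RNA-binding zinc-finger protein, was at 138, 107 and 101 CPM against 16.7, 29.9 and 8.17, from 4 counts in nt (2.67 ± 0.71, adjusted p 0.0326; 0.90 against Mock, adjusted p 0.474). For Puf60 and Oaz1 nt lay below all 33 siRNA means, and the differences from Mock were 0.63 for Puf60 (adjusted p 0.528) and 0.24 for Oaz1 (adjusted p 0.718).

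Pgk1, mt-Co2, Prdx1 and Zfp266 were lower and mt-Co3 was higher in siTead2 than in nt. Pgk1, a glycolytic kinase whose transcript resembles those of 7 other genes, was at 621, 988 and 1385 CPM against 1565, 2273 and 2026 in nt (log2 fold change -0.90 ± 0.19, adjusted p 0.00205). The nt mean of Pgk1 lay above those of all 33 siRNAs and Mock was lower than nt as well, by -0.70 (adjusted p 0.00771), so that siTead2 and Mock differed by -0.19 (adjusted p 0.713). mt-Co2, the mitochondrially encoded subunit 2 of cytochrome oxidase, was at 782, 665.5 and 856 CPM against 1399, 1077 and 1291 in nt. All siTead2 libraries were below all nt and Mock libraries, with -0.70 against nt (adjusted p 0.0352), -1.08 against Mock (adjusted p 7.02e-06) and -0.74 against the other siRNAs (adjusted p 0.00159). Reads of mt-Co2 and of Gm28661, which is 100% identical to it over 681 bases, cannot be told apart with certainty, and Gm28661 had -0.40 against nt (adjusted p 0.389) and -0.81 against Mock (adjusted p 0.00051). mt-Co3, subunit 3 of the same enzyme, was higher instead, at 18740, 18055 and 17887 CPM against 13955, 11022 and 11609 (0.58, adjusted p 0.00205). Mock was higher than nt in mt-Co3 too, by 0.56 (adjusted p 0.000831), and siTead2 and Mock differed by 0.03 (adjusted p 0.949). Prdx1, a peroxidase, was at 874, 1224 and 1813 CPM against 1898, 1810 and 2867 (-0.73, adjusted p 0.00808), with replicate 3 of siTead2 above replicate 2 of nt. Zfp266, a zinc-finger gene, was at 92.0, 64.4 and 33.8 CPM against 216.5, 329 and 163 (-1.95, adjusted p 0.0157), and nt lay above all 33 siRNAs and above Mock (siTead2 against Mock -0.54, adjusted p 0.747). Gm8055, which resembles the glycolytic gene Gapdh, had 1 count in siTead2 against 23 in nt, 0.0627 times the depth-scaled number (exact interval 0.00152 to 0.386), and was not called against Mock (adjusted p 0.302).

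Further siTead2 calls were copies of mitochondrial genes and unnamed transcripts. Gm28437, a copy of mt-Co3 (0.58, adjusted p 0.00205), and Gm28439, a copy of mt-Nd4 (0.60, adjusted p 0.0148), were higher than in nt. Against Mock they had 0.03 (adjusted p 0.949) and 0.16 (adjusted p 0.632). Gm10925, a copy of mt-Atp6, was lower (-0.47, adjusted p 0.0352), also against Mock (-0.84, adjusted p 3.6e-08). Gm11407, which resembles mt-Nd5 at 92.34%, was at 989, 1202 and 788.5 CPM in siTead2 and at 940 and 928 CPM in siMtf1, against 1532, 1959 and 1495 in nt. Its log2 fold change was -0.77 in siTead2 (adjusted p 0.0132; -0.29 against Mock, adjusted p 0.501) and -0.94 in siMtf1 (adjusted p 0.0094; -0.47 against Mock, adjusted p 0.316). Gm44510 had 1, 1 and 2 counts in siTead2 against 9, 10 and 13 in nt (-2.46, adjusted p 0.0497; -0.73 against Mock, adjusted p 0.784). RP24-389J11.1 had -0.75 (adjusted p 0.0418), and -0.72 against Mock (adjusted p 0.0156).

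**Figure D1:**
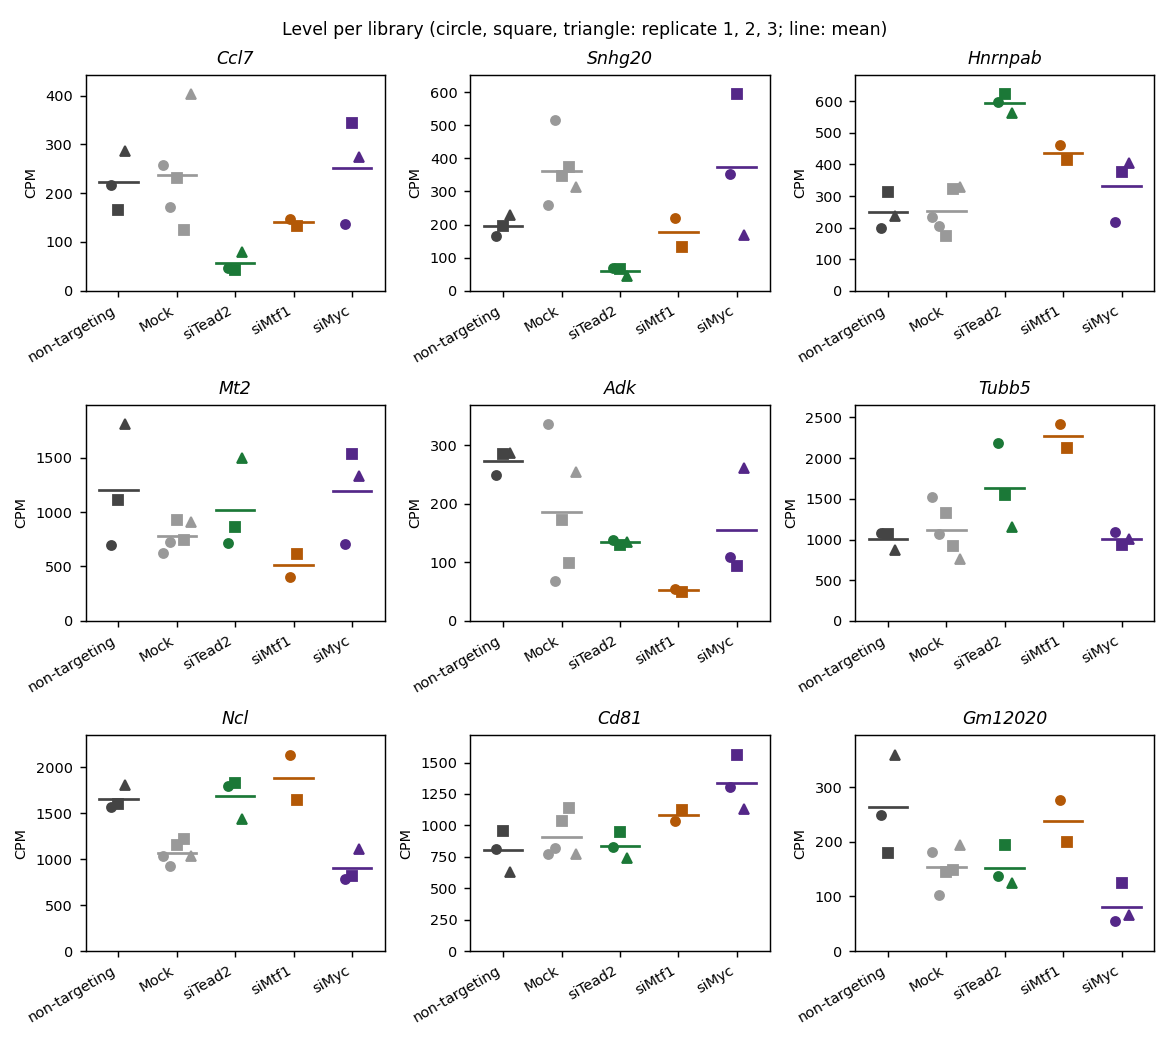
Level in CPM (y axes, linear from 0) of 9 genes in every library of nt, Mock, siTead2, siMtf1 and siMyc, with a symbol per replicate and a line at the mean. Ccl7 and Snhg20 sit lowest in siTead2 (means 55.9 and 59.5 CPM), Mt2 and Adk in siMtf1 (509 and 52.5 CPM), and Ncl in siMyc (903 CPM), where Mock (1072 CPM) is closer to siMyc than to nt (1657 CPM).

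In the plot of levels by library, the replicates of nt and of siMyc spread widely for Mt2, and the 2 siMtf1 points lack a partner in replicate 3. Mt2, a metallothionein and a classical target of MTF1, was at 406 and 613 CPM in siMtf1 replicates 1 and 2 against 699, 1107 and 1805 CPM in nt. Both siMtf1 libraries lay below all nt libraries and below all Mock libraries, which ran from 619 to 922 CPM. The log2 fold change against nt was -1.07 ± 0.25 (adjusted p 0.0094), from 22 and 37 counts in siMtf1. It was -0.49 against Mock (adjusted p 0.393) and -0.58 against the other siRNAs (adjusted p 0.325), and -1.01 against siMyc (adjusted p 0.0248). The call against nt held in 4 of 12 alternatives, with log2 fold changes from -1.26 to -0.49. Over all libraries the siMtf1 mean of Mt2 was the lowest of 33 siRNAs. On replicates 1 and 2 alone, the only ones siMtf1 has, it ranked 7 from the lowest. Mt1, the neighbouring metallothionein, was at 332 and 497 CPM against 400, 568 and 613 in nt, and the groups overlapped (log2 fold change -0.26, adjusted p 0.821).

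The promoters of both metallothioneins are shown because MTF1 acts through them. They run from 250 bases before to 50 bases after the start and come from RefSeq on GRCm38.p6, plus strand. Capitals mark metal response elements, searched as TGCACNC and TGCGCNC on both strands, which do not overlap each other.
Mt2 at chr8:94172368-94172667: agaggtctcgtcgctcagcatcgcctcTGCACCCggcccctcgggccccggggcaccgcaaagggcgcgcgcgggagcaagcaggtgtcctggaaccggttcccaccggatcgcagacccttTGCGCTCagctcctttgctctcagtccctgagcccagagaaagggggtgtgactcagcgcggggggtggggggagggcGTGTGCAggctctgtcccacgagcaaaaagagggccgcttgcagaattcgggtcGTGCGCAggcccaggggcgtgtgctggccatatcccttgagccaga
Mt1 at chr8:94178839-94179138: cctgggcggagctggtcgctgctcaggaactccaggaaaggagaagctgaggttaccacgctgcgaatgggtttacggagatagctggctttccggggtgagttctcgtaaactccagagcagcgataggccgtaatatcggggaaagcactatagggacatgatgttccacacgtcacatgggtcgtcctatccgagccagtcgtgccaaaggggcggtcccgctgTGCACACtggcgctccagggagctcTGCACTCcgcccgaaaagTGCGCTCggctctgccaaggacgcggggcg
The Mt2 promoter holds 4 such matches, 2 of each form, and the Mt1 promoter 3. Either form occurs in 25.7% of the 32851 promoters of this length and in 41.2% of the 1921 tested genes with a promoter in the table. Of the 8 genes called lower in siMtf1, 3 had a promoter in the table and 2 of these, Mt2 and Adk, held a match, and a match is no proof of a site. Slc30a1, a zinc exporter and MTF1 target with 2 matches, had 1 count in siMtf1 and 0 in nt.

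Beyond Mt2, Adk was lower and Tubb5 and Cdkn1a were higher in siMtf1. Adk encodes adenosine kinase, and it was at 55.3 and 49.7 CPM against 250, 284 and 286 in nt, without overlap (log2 fold change -2.15 ± 0.55, adjusted p 0.0332). These siMtf1 values rest on 3 counts each, and the Mock libraries ran from 68.7 to 335.5 CPM (siMtf1 against Mock -1.74, adjusted p 0.0997). Tubb5 was at 2415 and 2120 CPM against 1082, 1062 and 874 in nt, a log2 fold change of 0.98 ± 0.19 (adjusted p 0.000763) that was 0.93 against Mock (adjusted p 0.000447). Its siMtf1 mean was the highest of the 33 siRNAs, also on replicates 1 and 2 alone. Cdkn1a was at 1106 and 596 CPM against 383, 404 and 343 (1.07 ± 0.26, adjusted p 0.0152), and at 254 to 800 CPM in Mock (0.46, adjusted p 0.392). Pgk1 was at 774 and 1309 CPM against 1565, 2273 and 2026 in nt (-0.94, adjusted p 0.0094), and -0.24 against Mock (adjusted p 0.699).

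The 3 other genes called higher in siMtf1, Gm10801, Gm21738 and Gm10800, each resemble 11 other genes over at least 200 bases, and their reads cannot be assigned with certainty. Gm10800 was at 7540 and 5069 CPM in siMtf1 against 3614, 2946 and 3823 in nt (log2 fold change 0.87, adjusted p 0.0118), and Mock ran from 4696 to 7966 CPM. Gm10801 had a log2 fold change of 1.04 (adjusted p 0.0094) and Gm21738 of 1.01 (adjusted p 0.0094). Mock was higher than nt in all 3, by 0.76 (Gm10800), 1.20 (Gm10801) and 1.31 (Gm21738), with adjusted p of 0.00358, 8.22e-06 and 1.08e-07. Against Mock the siMtf1 libraries had -0.16 for Gm10801 and -0.30 for Gm21738, the opposite sign, without a call.

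Among named genes, siMyc had less Ncl and more Cd81 than nt, neither of which was called against Mock. Ncl encodes nucleolin, an abundant protein of the nucleolus and a classical MYC target. It was at 790, 813 and 1108 CPM in siMyc against 1565, 1600 and 1805 in nt, with no overlap (log2 fold change -0.82 ± 0.18, adjusted p 0.00549). The siMyc mean was the lowest of the 33 siRNAs. It was also lower than in siTead2, which had 1793, 1825 and 1442 CPM (siTead2 against siMyc 0.81, adjusted p 0.00646), and lower than in siMtf1, which had 2139 and 1640 CPM (0.96, adjusted p 0.00113). Mock, however, ran from 927 to 1216 CPM and was itself lower than nt by -0.65 (adjusted p 0.00723), so that siMyc and Mock differed by -0.17 (adjusted p 0.888). The difference of siMyc from the other 30 siRNAs was -0.51 (adjusted p 0.106). The call against nt held in 4 of 11 alternatives (adjusted p 0.000184 to 0.888).

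Cd81, a tetraspanin of the cell surface, was at 1307, 1563 and 1134 CPM in siMyc against 816, 957 and 629 in nt, with no overlap (log2 fold change 0.75 ± 0.18, adjusted p 0.0229). Its mean was the highest of the 33 siRNAs, with 0.50 against the other siRNAs (adjusted p 0.0824) and 0.58 against Mock (adjusted p 0.131). Gm13408, a processed pseudogene 98.25% identical to the ribosomal protein gene Rps3a1, was at 1225, 969 and 1238 CPM against 316, 538 and 629 in nt (1.18 ± 0.21, adjusted p 0.000135). Mock was as high, at 903 to 1567 CPM, and siMyc against Mock gave -0.11. Gm5844, a pseudogene that resembles Hsp90aa1, was at 2015, 1657 and 2463 CPM against 3664, 2857 and 3880 (-0.75, adjusted p 0.00534; -0.54 against Mock, adjusted p 0.089). Gm8451, which resembles Rpl27a, had -1.07 (adjusted p 0.00962; -0.53 against Mock, adjusted p 0.636). mt-Co3 was at 18460, 17758 and 15349 CPM against 13955, 11022 and 11609 in nt (0.49, adjusted p 0.0366), and siMyc against Mock gave -0.06. Its copy Gm28437 had 0.53 (adjusted p 0.0196) and -0.03 against Mock (adjusted p 0.996). Reads of these pseudogenes and of their parent genes cannot be told apart with certainty.

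A gene without a known name, Gm43333, was among the calls of both siTead2 and siMyc, which share the nt libraries. It was at 874, 644 and 1262 CPM in siTead2, at 762, 813 and 1212 CPM in siMyc, and at 2581 and 1491 CPM in siMtf1, against 1832, 1167 and 2010 in nt. Replicate 3 of siTead2 and of siMyc lay above replicate 2 of nt, so the groups overlapped. The log2 fold changes against nt were -0.83 (siTead2, adjusted p 0.00205) and -0.84 (siMyc, adjusted p 0.00534). Within siTead2 and siMyc the difference was also called against Mock, at -0.75 (adjusted p 0.0013) and -0.75 (adjusted p 0.0151). siTead2 differed from siMtf1 by -1.32 (adjusted p 1.1e-07).

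**Figure D2:**
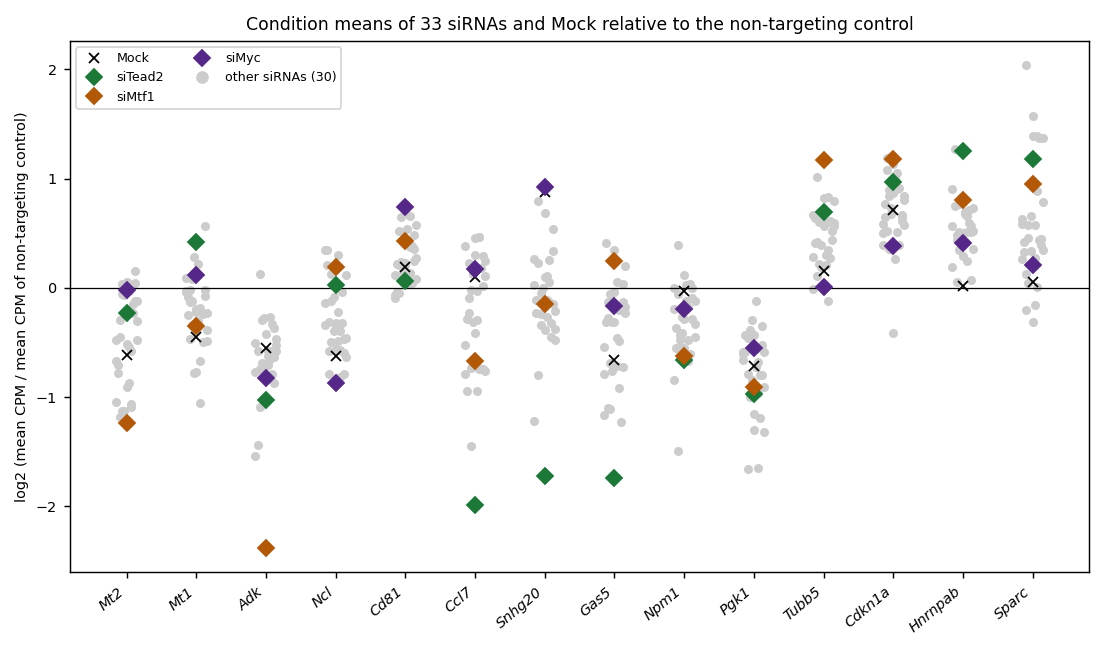
Condition means of 14 genes as log2 ratio to the nt mean (y axis), with a grey point for each of the other 30 siRNAs, a cross for Mock and diamonds for siTead2, siMtf1 and siMyc. For Pgk1 every siRNA lies below the nt mean and for Hnrnpab every siRNA lies above it, whereas siTead2 is the lowest of 33 for Ccl7 and Snhg20.

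The plot of condition means sets each difference from nt beside the other siRNAs. Against the mean of the other 30 siRNAs, edgeR called 23 genes in siTead2 (0.763%), 2 in siMtf1 (0.0664%) and 7 in siMyc (0.232%). In siTead2 8 were higher and 15 lower (0.266 and 0.498%), in siMtf1 1 and 1 (0.0332% each), and in siMyc 3 and 4 (0.0996 and 0.133%). Besides genes given above, Mt1 was called in siTead2, at 667, 687 and 755 CPM, 0.62 above the other siRNAs (adjusted p 0.0496) and 0.89 above Mock (adjusted p 0.015), where it ran from 254 to 490 CPM. Spp1, the secreted matrix protein osteopontin, had 0.58 and Ly6a, a surface antigen, had -0.71 in siTead2. Col1a1, a chain of type I collagen, was called in siMyc, at 109, 31.3 and 78.2 CPM, the lowest mean of 33 siRNAs (-1.77 ± 0.39, adjusted p 0.00777). It was at 345, 301 and 259 CPM in siTead2 and at 166.5, 209 and 139 CPM in nt (siMyc against nt -1.12, adjusted p 0.455). Rpl26, a ribosomal protein gene, was at 1007, 813 and 1134 CPM in siMyc, 0.72 above the other siRNAs (adjusted p 0.00777). In siMtf1 the call in the higher direction was Gm10801 (0.79, adjusted p 0.0339). Without the replicate block these counts were 0, 0 and 2, with 238, 278 and 220 genes at an unadjusted p under 0.05.

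Of the 18 transcripts called lower in siTead2 (0.597% of all genes tested), 3 were copies that resemble Npm1 (Gm14681, Gm5611 and Gm17060), beside Npm1 itself. Of the 8 called lower in siMtf1 (0.266% of all genes tested), 4 were such copies (these 3 and Gm14776). Npm1 encodes nucleophosmin, a chaperone of ribosome assembly in the nucleolus. The table holds 11 genes of this family, processed pseudogenes among them, and 7 of the 11 were tested. Npm1 itself was at 3886, 3886 and 4066 CPM in siTead2 and at 4038 and 4058 CPM in siMtf1, against 5729, 5997 and 6977 in nt and 4958 to 7120 in Mock. Both groups lay below all nt and Mock libraries, but 26 of the other 30 siRNA means lay below the nt mean too, and siTead2 and siMtf1 ranked 4 and 5 from the lowest of 33. On replicates 1 and 2 alone, the ones siMtf1 has, siMtf1 ranked 7. The log2 fold change was -0.66 ± 0.14 in siTead2 (adjusted p 0.00205) and -0.57 in siMtf1 (adjusted p 0.0718), and against Mock it was -0.65 (adjusted p 0.000198) and -0.56 (adjusted p 0.0214). Against the other siRNAs it was -0.35 (adjusted p 0.1) and -0.25 (adjusted p 0.52). In siMyc Npm1 was at 5663, 5315 and 5394 CPM (-0.20, adjusted p 0.722). Gm5611, which resembles Npm1 at 94.86%, was at 2618 and 2236 CPM in siMtf1 against 5262, 6057 and 4501 in nt (-1.22 ± 0.22, adjusted p 0.000253). The difference for Gm17060 was -1.17 (adjusted p 0.000327) in siMtf1 and -0.75 (adjusted p 0.0148) in siTead2. Gm14681 had -0.83 (adjusted p 0.0381) and -0.93 (adjusted p 0.00205) in the same order. Gm5611 had -0.79 in siTead2 (adjusted p 0.00808) and Gm14776 -0.96 in siMtf1 (adjusted p 0.011). Against Mock, Gm17060 had -0.82 in siMtf1 (adjusted p 0.0138) and -0.40 in siTead2 (adjusted p 0.251), Gm5611 -0.81 (adjusted p 0.0146) and -0.39 (adjusted p 0.266), and Gm14681 -0.59 (adjusted p 0.128) and -0.69 (adjusted p 0.0122). Gm14776 had -0.66 in siMtf1 (adjusted p 0.0921). For Gm5611, Gm17060 and Gm14776 the nt mean lay above those of the other 30 siRNAs.

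Because reads of one copy can be counted for another, the family was also summed, a step chosen after its values were seen and given without a test. The Npm1 family summed to 15957, 12302 and 13201 CPM in siTead2, to 12758 and 11827 CPM in siMtf1 and to 19985, 15914 and 14762 CPM in siMyc. In nt the sums were 22864, 23271 and 21567 CPM, and in Mock they ran from 15133 to 22214. The means were 61.2% of nt in siTead2, 54.5% in siMtf1, 74.8% in siMyc and 86.1% in Mock. The sums were not set against the other 30 siRNAs, but single copies were: from the lowest of 33, siTead2 ranked 23 for Gm5611, 22 for Gm17060, 27 for Gm14776 and 9 for Gm14681, and siMtf1 ranked 11, 10, 11 and 14. On replicates 1 and 2 alone, siMtf1 ranked 8, 8, 10 and 12 in the same order. Ncl with its copies Gm12020 and Gm17837 summed to 844, 938 and 1186 CPM in siMyc against 1965, 1825 and 2214 in nt and 1099 to 1415 in Mock. The means were 49.4% of nt in siMyc, 64.4% in Mock, 95.1% in siTead2 and 112% in siMtf1. Gm12020 was at 54.5, 125.1 and 65.2 CPM in siMyc against 250, 179.5 and 359.5 in nt, and was called by itself (-1.85 ± 0.45, adjusted p 0.0215; -1.10 against Mock, adjusted p 0.583).

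**Figure D3:**
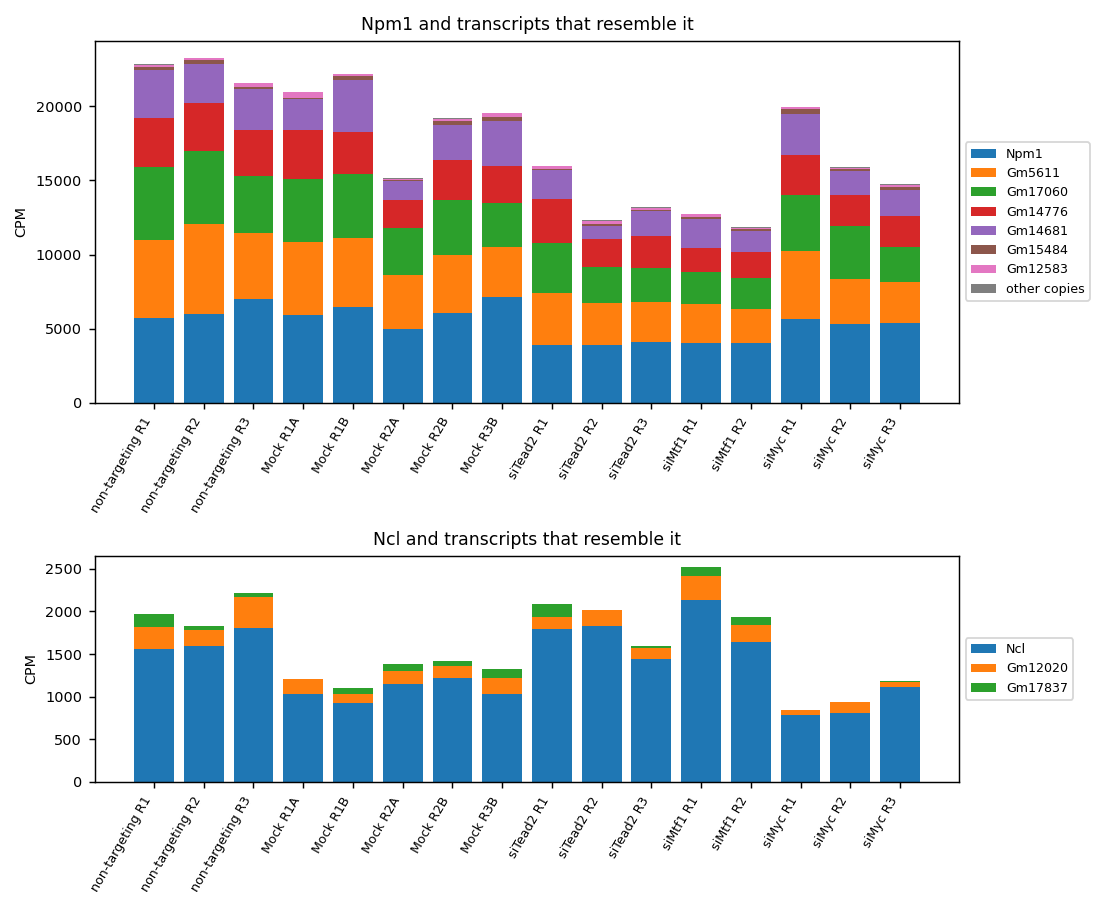
Summed level in CPM (y axes) of Npm1 (top) and Ncl (bottom) with the transcripts that resemble them, in each library of nt, Mock, siTead2, siMtf1 and siMyc, with a colour per gene. The Npm1 sums of siTead2 and siMtf1 lie between 11827 and 15957 CPM, below the nt range of 21567 to 23271, and the Ncl sums of siMyc lie between 844 and 1186 CPM, with Mock between 1099 and 1415.

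In the plot of copy families, the copies made up more of each sum than Npm1 itself, whereas Ncl was mostly Ncl itself. No test of the shares of the copies was made.

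The 3 siRNAs were also set against each other, in 3 pairs. siTead2 and siMyc differed in 28 genes (0.929%), 7 higher and 21 lower in siTead2 (0.232 and 0.697%). Snhg20 and Snhg5 were at opposite ends of the 33 siRNAs in these groups, -2.47 (adjusted p 0.000696) and -1.89 (adjusted p 0.000585). Ccl7 differed by -2.03 (adjusted p 0.011), mt-Co2 by -0.996 (adjusted p 0.000696) and Col1a1 by 1.94 (adjusted p 0.0115). siMtf1 and siMyc differed in 26 genes (0.863%), 11 higher and 15 lower in siMtf1 (0.365 and 0.498%). These included Mt2 (-1.01), Snhg5 (-1.68, adjusted p 0.00575), Rpl26 (-1.25), Tubb5 (0.93, adjusted p 0.00355) and Ncl (0.96). siTead2 and siMtf1 differed in 5 genes (0.166%), and the 4 that were lower in siTead2 (0.133%) were Gm43333, Gm26870, Gm10801 and Gm10800. With RLE scaling that last pair had 4 higher and 4 lower genes in siTead2, with DESeq2 10 and 6, and with these conditions alone 24 and 9. Without the replicate block the 3 pairs had 7, 8 and 1 calls.

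siMyc was further compared with siPou5f1, the siRNA against the cassette factor Oct4, and 75 genes were called (2.49%), 33 higher and 42 lower in siMyc (1.1 and 1.39%). Hmga2 was at 1171, 1188 and 821 CPM in siMyc, 1.91 above siPou5f1 (adjusted p 1.5e-07), Timp2, an inhibitor of matrix proteases, had 1.42 (adjusted p 0.000902) and Vim, an intermediate filament protein, had 1.16 (adjusted p 0.0035). Crabp1, a retinoic acid binding protein, had 1.55 (adjusted p 3.71e-06) and Twist2, a mesenchymal transcription factor, 2.25 (adjusted p 0.0285). Ftl1, the ferritin light chain, had 1.27 (adjusted p 0.000198). Lower in siMyc were Eif4a1, a helicase of translation initiation, at -1.27, and Rpl7 at -0.78. The split by direction changed with the method. A fit of these conditions alone called 10 genes, 10 higher and 0 lower, and a fit without the block 20, 12 higher and 8 lower. limma called 41 higher and 12 lower, and DESeq2 48 higher and 60 lower.

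**Figure D4:**
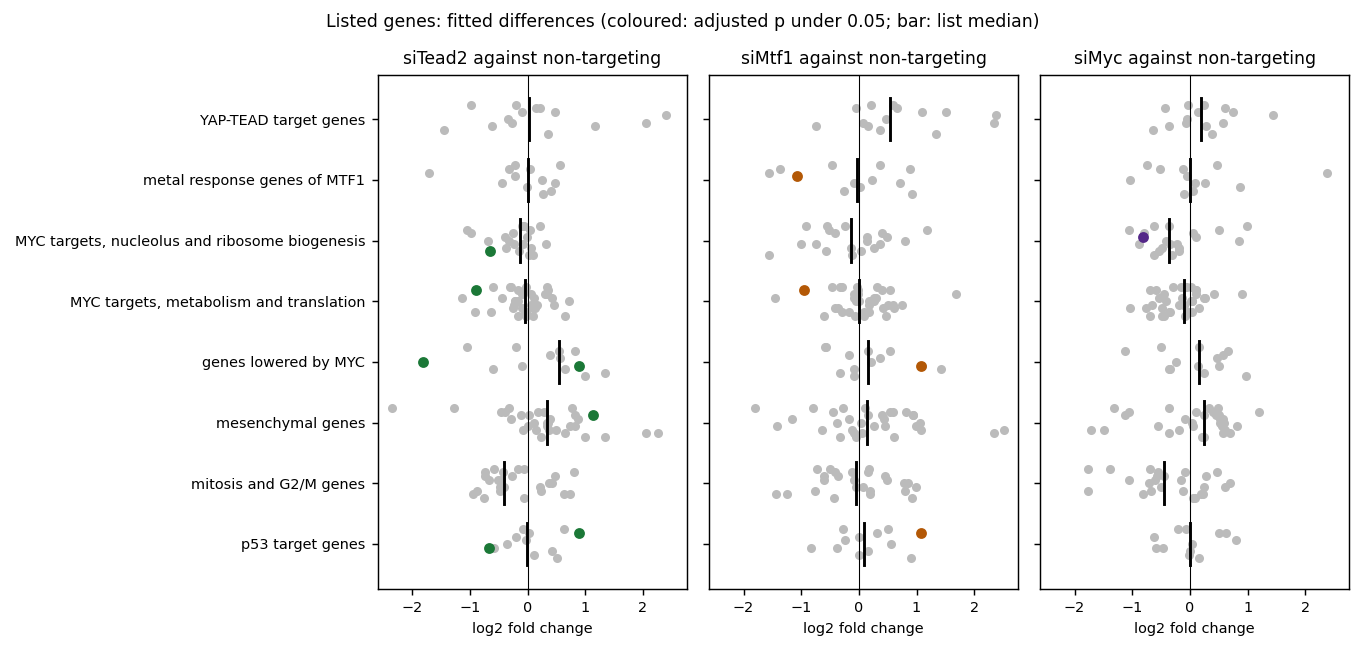
Fitted log2 fold changes against nt (x axes) of the tested genes in 8 lists (rows) for siTead2, siMtf1 and siMyc, with genes of an adjusted p under 0.05 coloured and a bar at the list median. In the YAP-TEAD list no gene is coloured in any panel, in the metal list Mt2 alone is coloured for siMtf1, and in the nucleolar list Npm1 is coloured for siTead2 and Ncl for siMyc.

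The plot of listed genes shows pathways known for each factor. Of 28 YAP-TEAD target genes 14 were tested, and edgeR called 0 in siTead2, beside 1.03% of all genes (0 by DESeq2 and by limma). At an unadjusted p under 0.05 there were 0, beside 10.9% of all genes. The median log2 fold change of the list was 0.0281 against -0.0178 for all genes tested, with 7 members above 0 and 7 below. Thbs1, a matrix glycoprotein, had -0.09 (adjusted p 0.959), Axl, a receptor kinase, -0.27 (adjusted p 0.909), and Crim1, a membrane protein that binds growth factors, -1.45 (adjusted p 0.477). In siMtf1 the same list had a median of 0.535 with 12 members above 0 and 2 below, and 0 calls by edgeR (3 at an unadjusted p under 0.05; DESeq2 called 1 higher and limma 0). Of all genes tested, 0.431% were called in siMtf1 and 9.89% had an unadjusted p under 0.05. The summed level of the list was 2544 CPM in replicate 1 but 1491 CPM in replicate 2 of siMtf1, against 1266, 1391 and 972 CPM in nt. The median was 0.83 for siMtf1 against Mock and 0.179 for Mock against nt. In siMyc the median of this list was 0.19, with 0 calls by any of the 3 tools, beside 0.299% of all genes by edgeR. Of 22 TEAD and YAP/TAZ partners 8 were tested and 0 called in siTead2, beside 1.03% of all genes (0 by DESeq2 and limma). Their median was -0.272, and 0 had an unadjusted p under 0.05, beside 10.9% of all genes.

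Of 23 metal response genes 12 were tested. In siMtf1 edgeR called 1, Mt2, beside 0.431% of all genes tested, with a median of -0.0306 against 0.00975 for all genes and 6 members on each side of 0. Ftl1 had 0.72 (adjusted p 0.0928; 0.81 against Mock, adjusted p 0.0147), Fth1, the ferritin heavy chain, 0.37 (adjusted p 0.51), and Tfrc, the transferrin receptor, -0.08 (adjusted p 0.924). Of 24 zinc and copper transporters only 3 could be tested and 0 were called in siMtf1, beside 0.431% of all genes (0 by DESeq2 and limma). At an unadjusted p under 0.05 there was 1, beside 9.89% of all genes. In siTead2 and siMyc edgeR called 0 metal response genes, beside 1.03 and 0.299% of all genes. At an unadjusted p under 0.05 there were 3 and 2, beside 10.9 and 9.49% of all genes. DESeq2 called 1 higher in each and limma 0.

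Of 41 MYC targets in nucleolus and ribosome biogenesis 20 were tested. In siMyc 5 were above 0 and 15 below, with a median of -0.36 against -0.00904 for all genes, and 1 was called, Ncl, beside 0.299% of all genes, while 4 had an unadjusted p under 0.05, beside 9.49% of all genes. DESeq2 called 2 lower and limma 0. Mock against nt gave a median of -0.377 in this list, with 6 above 0, 14 below and 2 called lower, and siMyc against Mock one of -0.00133, with 10 on each side and 0 calls. Nop58, a core protein of box C/D snoRNPs, was at 681, 625 and 482 CPM in siMyc against 1066, 1032 and 948 in nt. The groups did not overlap, yet the log2 fold change of -0.80 ± 0.23 missed the threshold (adjusted p 0.102), as did -0.79 against Mock (adjusted p 0.0894). Fbl, the methyltransferase fibrillarin, had -1.06 (adjusted p 0.455) and Nop56 -0.48 (adjusted p 0.742). In siTead2 the median was -0.13 with 1 call, Npm1, beside 1.03% of all genes. In siMtf1 it was -0.129 with 0 calls, beside 0.431% of all genes (DESeq2 1 lower, limma 0). At an unadjusted p under 0.05 siMtf1 had 2, beside 9.89% of all genes. Of 48 MYC targets in metabolism and translation 37 were tested. In siMyc edgeR called 0, beside 0.299% of all genes, DESeq2 1 lower and limma 0. At an unadjusted p under 0.05 there were 4, beside 9.49% of all genes. The median was -0.112, with 13 above 0 and 24 below. Mock against nt had -0.107 here (14 above 0, 23 below) and siMyc against Mock -0.00328 (18 and 19). In siTead2 and siMtf1 the call in this list was Pgk1, beside 1.03% and 0.431% of all genes. Of 26 genes that MYC lowers, 13 were tested, with a median of 0.163 and 0 calls in siMyc, beside 0.299% of all genes (DESeq2 1 higher, limma 0). At an unadjusted p under 0.05 there were 4, beside 9.49% of all genes. The median of this list was 0.353 for Mock against nt and -0.107 for siMyc against Mock. In siTead2 that list had Cdkn1a higher and Gas5 lower (1.03% of all genes called), and in siMtf1 Cdkn1a higher (0.431%).

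Lists not tied to one factor gave few calls. Of 32 mesenchymal genes tested, Sparc was called in siTead2, beside 1.03% of all genes (median 0.329 against -0.0178 for all genes, 23 above 0 and 9 below) and 0 in siMyc (0.299% of all genes; median 0.241 against -0.00904; 2 unadjusted, 0 by DESeq2 and limma) or in siMtf1 (0.431% of all genes; median 0.138 against 0.00975; 4 unadjusted, DESeq2 1 higher, limma 0). Mock against nt had a median of 0.3 in this list (25 above 0, 7 below), siTead2 against Mock 0.118 (18 and 14), siMtf1 against Mock -0.249 (14 and 18) and siMyc against Mock -0.0164 (15 and 17). Of the same 32 genes 3 were higher in siMyc than in siPou5f1, beside 1.1% of all genes, with a median of 0.77 against -0.012 for all genes and with 22 above 0 and 10 below. Of 25 genes of mitosis and G2/M, 0 were called in siTead2, siMtf1 or siMyc by edgeR, DESeq2 or limma. Over all genes edgeR called 1.03, 0.431 and 0.299%. At an unadjusted p under 0.05 there were 2, 2 and 1, beside 10.9, 9.89 and 9.49% of all genes. The list medians were -0.42 in siTead2, -0.0525 in siMtf1 and -0.459 in siMyc. Mock against nt had -0.507, and the medians against Mock were 0.0964, 0.349 and 0.106. Of 12 p53 target genes tested, siTead2 had Cdkn1a higher and Ccng1, a p53-induced cyclin, lower (-0.68, adjusted p 0.046; -0.32 against Mock, adjusted p 0.452), beside 1.03% of all genes called. In siMtf1 Cdkn1a was higher, beside 0.431% of all genes, and siMyc had 0 calls, beside 0.299% (DESeq2 1 lower, limma 0). At an unadjusted p under 0.05 siMyc had 2 p53 targets, beside 9.49% of all genes. Pluripotency genes were mostly under the filter, with 4 of 34 tested and 0 called in the 3 siRNAs by edgeR, DESeq2 or limma. Over all genes edgeR called 1.03, 0.431 and 0.299% in siTead2, siMtf1 and siMyc. At an unadjusted p under 0.05 there were 0, 1 and 0 pluripotency genes, beside 10.9, 9.89 and 9.49% of all genes.

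**Figure D5:**
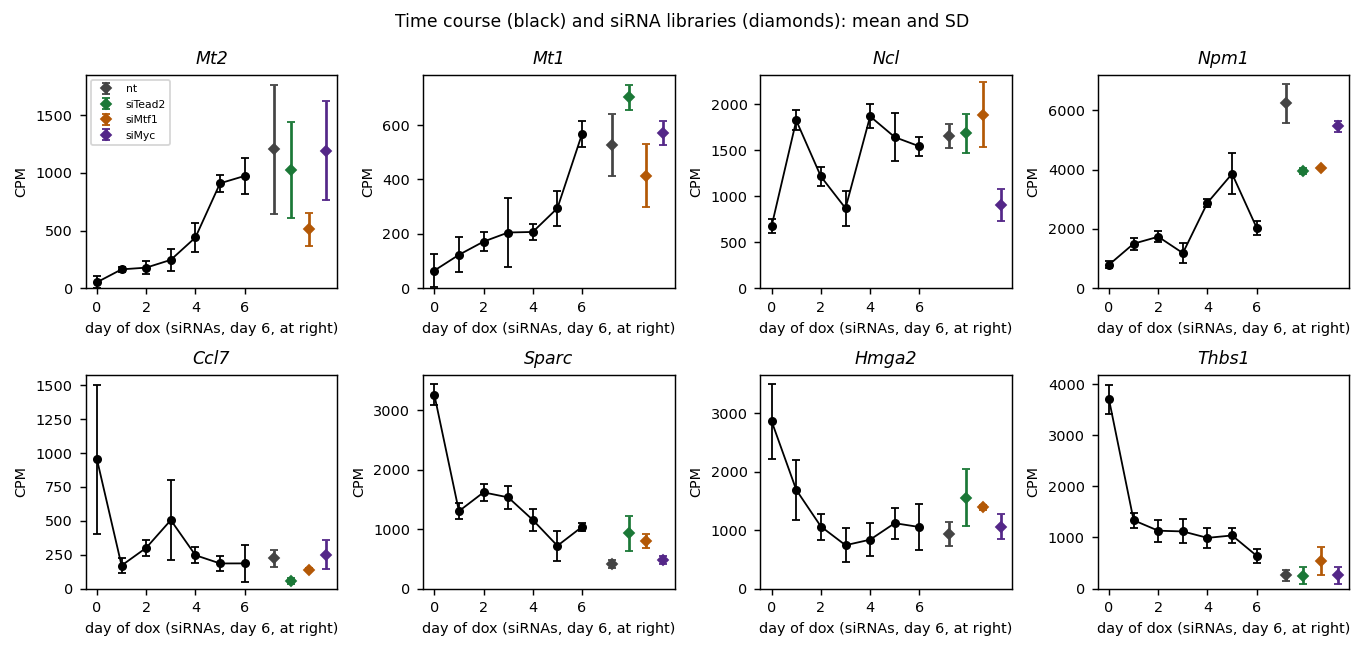
Mean level in CPM with SD (y axes) of 8 genes over days 0 to 6 of untransfected cells (black, n = 3 per day) and, at the right of each panel, of nt, siTead2 and siMyc (n = 3) and siMtf1 (n = 2) on day 6. Mt2 climbs from 51.8 CPM on day 0 to 973 on day 6. The siMtf1 mean covers replicates 1 and 2 only.

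The time course plot gives the course of these genes in cells without siRNA. From day 0 to day 6, 668 genes differed (22.2%), 321 higher (10.7%) and 347 lower (11.5%), and 229 and 431 with RLE scaling. Mt2 rose by 4.29 on the log2 scale (adjusted p 4.11e-26) and Mt1 by 2.71 (adjusted p 2.69e-12). Ncl rose by 1.22 (adjusted p 4.62e-09) and Npm1 by 1.35 (adjusted p 2.9e-11). Ccl7 fell by 2.49 (adjusted p 2.53e-15), Sparc by 1.66 (adjusted p 6.04e-16), Hmga2 by 1.48 (adjusted p 5.27e-12) and Col1a1 by 1.58 (adjusted p 1.37e-09). Of the 18 genes called lower in siTead2, 8 rose and 2 fell over the time course, and of the 13 called higher 1 rose and 3 fell. Of the 8 called lower in siMtf1, 5 rose and 0 fell, and of the 5 called higher 0 rose and 3 fell. Of the 5 called lower in siMyc, 4 rose and 0 fell, and the 4 called higher were not called in the time course. These counts are not of independent genes. The genes called lower include Npm1 copies in siTead2 and siMtf1, and Ncl with its copy Gm12020 in siMyc. Reads of such copies cannot be told apart with certainty. Npm1 was far higher in nt, at 6234 CPM, than on day 6 of the untransfected cells, at 2033 CPM, so levels of transfected and untransfected cells are not set against each other by a test.

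Matches to the siRNA seeds were counted in 3′ UTRs. Of the 2404 tested genes with an annotated 3′ UTR, 35.2% held a match to a Tead2 guide seed, 26.1% to an Mtf1 one and 39.1% to a Myc one. Of the genes called lower, Zfp266 held one among 6 genes with a 3′ UTR in siTead2, none of 3 did in siMtf1, and Ncl, the 1 such gene in siMyc, held matches to both Myc guides, as did 9.78% of tested genes. Puf60 and Zfp106, called higher in siTead2, held a match as well. Whether a seed has a part in any difference was not tested.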

How the data were processed

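CEL-Seq2 libraries of siRNA-transfected and untransfected cells were deposited as 3 replicates. Per the methods, the authors aligned reads with Bowtie2 to mm10, collapsed UMIs and deposited the counts per gene (GENCODE annotation), and separately deposited log2 values that they filtered, normalised and regressed on batch. The members and gene lists were chosen with earlier results of these data known. Libraries under 10000 counts were left out (siMtf1 replicate 3 and 1 Mock library), which leaves 127 of 129. The counts were fitted with edgeR 4.0.16 (R 4.3.3; TMM, filterByExpr, quasi-likelihood test, condition plus replicate; 3013 of 50507 genes, 83 residual degrees of freedom) and adjusted by Benjamini-Hochberg within each comparison at 0.05. The replicate number marks libraries that were deposited together and was therefore a block. Whether it stands for a sequencing pool, a round of transfection or both is not stated. Deviations of libraries from the same replicate had a median correlation of 0.08, and those from different replicates -0.0527. Named genes were up to 12 per direction with the largest change, a mean of at least 50 CPM and the same sign in every replicate, plus list members. p-values measure the spread between these libraries. Alternatives were limma 3.58.1 on the log2 values, DESeq2 1.42.0, RLE scaling, other filters, controls and library sets. In simulated data (3013 genes, no replicate effects), changes were planted only in genes with a mean of at least 50 CPM. For siTead2, siMtf1 and siMyc against nt, 4-fold changes were called in 79, 68 and 73% of the planted genes. For 2-fold changes the shares were 31, 21 and 33%. False calls numbered 7, 8 and 5 among 2257, 2258 and 2260 unchanged genes. A gene that met the naming rule is not reported here.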

Additional observations from a re-analysis of the deposited data

Results flagged for a closer look

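Single libraries that stand apart were looked for in Mock, which has 5 libraries, and a value was singled out where its gap to the nearest library exceeded 0.71 of the range of the group. Of 60 sets of Mock values 3 did, and chance gives about 1 in 20. The total counts of replicate 3 were 83089, against 38925 to 49873 in the other Mock libraries (gap 0.752 of the range). Replicate 3 was also the deepest of its group in nt (143156), siTead2 (101865) and siMyc (84880), so this depth is shared by these groups. Gm8055 was at 99.3 CPM in 1 library of replicate 2 against 14.9 to 34.3 CPM in the others (0.77). Ccnd2, a D-type cyclin, was at 2284 CPM in the same library against 1342 to 1579 CPM (0.748). The siTead2, siMtf1, siMyc and nt groups have 2 or 3 libraries and could not be examined in this way. The rule takes the 5 Mock libraries as independent, although replicates 1 and 2 each gave a pair.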

How the results depend on the processing

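Depth limits these results: totals were 37848 to 101865 counts in the siRNA libraries, and several named genes rest on under 20 counts in a group. Counts of called genes are given for siTead2, siMtf1 and siMyc against nt (31, 13 and 9), then against the other siRNAs (23, 2 and 7), then for siTead2-siMyc, siMtf1-siMyc, siTead2-siMtf1 and siMyc-siPou5f1 (28, 26, 5 and 75). Without the replicate block they were 2, 0 and 0, then 0, 0 and 2, then 7, 8, 1 and 20. With limma they were 2, 0 and 1, then 11 for siTead2 and 3 for siMyc, then 4, 5 and 1, and with DESeq2 30 (siMtf1) and 35 (siMyc), then 48, 19 and 20, then 65, 54 and 16. Without a filter they were 15 (siTead2) and 15 (siMyc), then 18 (siMtf1) and 18 (siMyc), then 8, 10 and, for the last pair, 30. The compared conditions alone gave 60, 6 and 51, then 7 (siMtf1), then 76, 40, 33 and 10. With Mock as control there were 97 and 56 for siTead2 and siMtf1, and with the mean of nt and Mock 48, 27 and 4. With siMtf1 replicate 3 included there were 29, 14, 49 and 8 in its comparisons. RLE scaling gave 4 for siMtf1 against the others and 8 for siTead2-siMtf1. Leaving out a replicate gave 0 to 17, 2 to 7 and 1 to 5, then 2 to 5, 0 to 3 and 2 to 4, then 5 to 12, 5 to 27, 3 to 7 and 35 to 60. Where siMtf1 keeps 1 library, it was assumed to vary like the other groups. Day 6 against day 0 (668) had 430 without a filter and 343 to 564 without a replicate.

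Signs turned with Mock as control for Gm10801 (-0.16) and Gm21738 (-0.30) in siMtf1, for Axl (0.49) in siTead2 and in siMyc for Gm13408 (-0.11), Gm28437 (-0.0263), mt-Co3 (-0.062), Dkc1 (0.0113), Ccnd2 (-0.14), Pgk1 (0.11), Cdkn1a (-0.11) and Thbs1 (-0.48). With the mean of both controls Axl in siTead2 was 0.11 and Thbs1 in siMyc -0.17, with limma Thbs1 in siTead2 was 0.31, without a filter Thbs1 in siMyc was -0.00045, and with the compared conditions alone Tfrc in siMtf1 was 0.0144. Leaving out a replicate gave either sign for Thbs1 (-0.66 to 0.23), Tead1 (-0.46 to 0.61) and Axl (-1.36 to 0.45) in siTead2, Fth1 (-0.17 to 0.80) and Tfrc (-0.21 to 0.00257) in siMtf1, and Ccnd2 (-0.16 to 0.45), Ranbp1 (-0.28 to 0.0586) and Thbs1 (-0.19 to 0.47) in siMyc. The cause was not tested.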

Other observations

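The siMtf1 library of replicate 3, left out for its depth, held 5 counts of Mt2, 12 of Tubb5 and 5 of Sparc among 7981. No comparison rests on them.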
